A study of Mus musculus with 3 samples.

Results

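The genes of the cytosolic ribosomal proteins were examined in poly(A)-selected RNA of CAD cells, a mouse neuroblastoma line with catecholaminergic features, 72 hours after transfection with control siRNAs, with siRNAs against Ptbp1, or with siRNAs against Ptbp1 and Ptbp2 together. Ptbp1 and Ptbp2 encode polypyrimidine tract binding proteins, which bind pyrimidine-rich RNA and regulate splicing. Each condition is 1 library of a transiently transfected cell line, so no comparison has a replicate and none of the differences below has a test; intervals cover counting error only, and reads from PCR without molecular identifiers are not independent molecules. A gene was taken as a member when an alias of its row had the form of a ribosomal protein symbol (Rpl or Rps with a number and an optional a, l or x, or Rplp0 to Rplp2), and the row with the most exonic length was kept where a symbol had several. That gave 82 rows and 79 genes, of 27389 gene clusters in all: 48 of the large and 31 of the small subunit. Of these, 76 belong to the standard ribosome (46 and 30), and Rpl3l, Rpl39l and Rps27l are additional forms.

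A cytosolic ribosome joins a small subunit, which reads the mRNA, to a large subunit, which forms the peptide bond, and each ribosomal protein normally occurs in a single copy per ribosome, or in a few copies in the stalk. Their mRNAs are short, abundant in growing cells, and often begin with an uninterrupted run of pyrimidines, the terminal oligopyrimidine (TOP) tract, through which their translation responds to growth signals. The same short, abundant mRNAs have been reverse transcribed and inserted into mammalian genomes many times, so that most of these genes have processed pseudogenes, copies without introns that a short read can match as well as its source gene.

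The number of places a 36-base read could come from was therefore counted first, since it bears on every level below. For each member the 36-base windows of its protein-coding transcripts were sought in the mm9 genome on both strands. The windows shown are, for each gene, the one in coding sequence with the most exact matches, for the 4 genes with the most copies and, for comparison, for the highly expressed gene Rpl4.

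Rpl7a (mm9 chr2:26767903-26767938, + strand): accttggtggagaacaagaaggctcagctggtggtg

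Rpl29 (mm9 chr9:106333437-106333472, + strand): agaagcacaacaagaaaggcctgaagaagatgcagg

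Rpl21 (mm9 chr5:147646574-147646609, + strand): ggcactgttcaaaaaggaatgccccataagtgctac

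Rps2 (mm9 chr17:24858122-24858157, + strand): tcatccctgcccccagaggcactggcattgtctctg

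Rpl4 (mm9 chr9:64022684-64022719, + strand): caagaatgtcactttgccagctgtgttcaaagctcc

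The window of Rpl7a stood at 67 places in the genome, that of Rpl21 at 50, that of Rpl29 at 49 and that of Rps2 at 47. By the same count the window of Rpl4 stood at 3 places. A read from any of these windows cannot be assigned to its gene by its own sequence alone. The reads are paired, and the mate of such a read may lie in sequence that occurs only once. Mates were not considered here, so the counts of places, repeated windows and copies may overstate how many reads are ambiguous. How the submitters treated such reads is not given in the sources used here.

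Over the 78 members with an annotated coding transcript (all but Rpl41), the median share of windows with a second exact match elsewhere was 64.0%, and in 48 members it was at least 50%. In 9 members every window was repeated, among them Rpl23a, Rpl36, Rps6 and Rps27. Copy loci, places away from the gene where at least 50 of its windows matched with at most 1 mismatch, numbered 1379 over all members, of which 602 lay in annotated pseudogenes. Rpl7a, a large subunit protein, had 144 copy loci, Rpl29 had 113, Rpl21 had 97 and Rps2, which lies at the entry of the mRNA channel, had 87. Near the other end of the range were Rpl8, Rpl4, Rpl14 and Rps9 with 1 locus each, and Rpl39l and Rpl3l with 0. The large subunit genes had a median of 11 loci and the small subunit genes 12.

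Members with many copies had low levels in the table. RPKM, the reads of a row relative to its length and to the size of the library, had a median in the control library of 231 for the 20 members with 0 to 5 loci, of 28.6 for the 28 with 6 to 14, and of 10.4 for the 30 with 15 or more. These bounds were chosen after the values were seen. Across 78 genes of this library, Spearman's rho between the number of copy loci and RPKM was -0.54, against -0.06 between row length and RPKM; the genes share the library, and the copies were counted from the same sequences the reads come from. The pattern has exceptions on either side. Rpl10, which joins the large subunit late in its assembly, had 17 loci and 322 RPKM, and Rpl32 had 13 loci and 479 RPKM. Rpl28 had 4 loci and only 3.5 RPKM. Whether reads with several matches were dropped, and what part that had in these levels, was not tested.

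**Figure D1:**
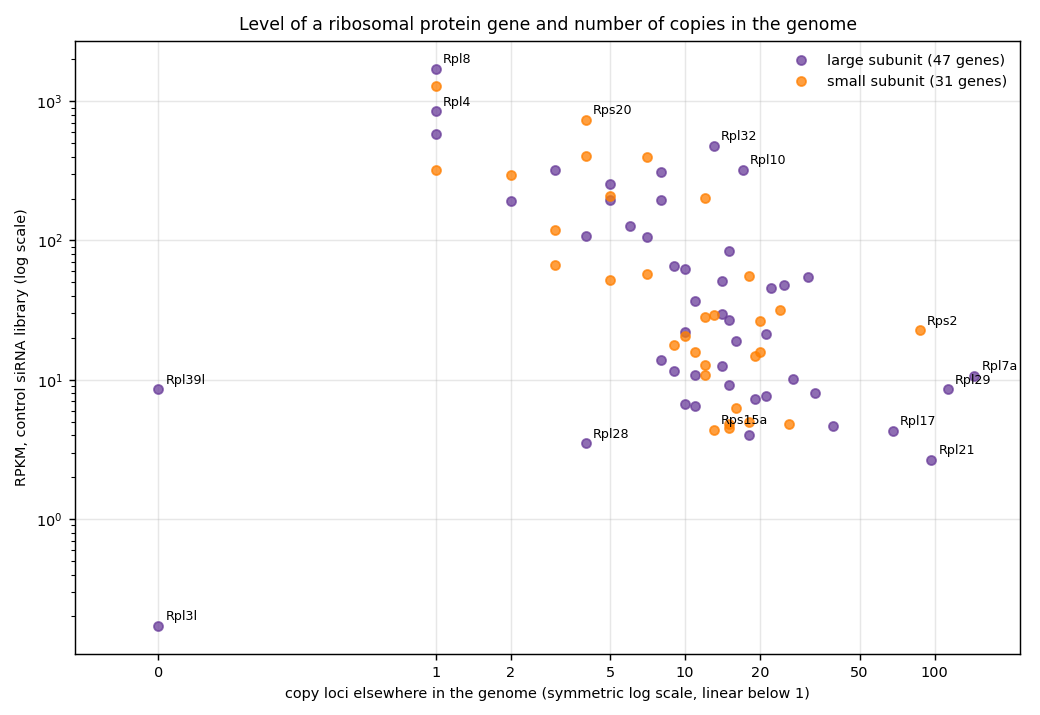
Each point is a ribosomal protein gene, with the number of copy loci elsewhere in mm9 on the x axis (symmetric log scale, linear below 1) and its RPKM in the control siRNA library on the y axis (log scale), in violet for the large and orange for the small subunit. Genes with 0 to 5 copies have a median of 231 RPKM and genes with 15 or more a median of 10.4 RPKM.

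Rows of the table were searched for copies. A row was taken as a copy when its length was at least 0.8 of its span, at least 0.5 of the span lay inside a copy locus, and no value was below 0. Other overlaps were left out: of the 113 copy loci of Rpl29, for example, 47 overlapped some row. By this rule 21 rows were copies, belonging to 7 members (Rpl29, Rpl3, Rpl32, Rpl6, Rps2, Rps27a and Rps4x). Of these rows, 1 held more reads than its source gene in the control library. That row, at mm9 chr5:116251567-116252206 in the annotated pseudogene Gm13841, carries the alias of Rpl29 and held 363, 414 and 430 reads in the control, Ptbp1 siRNA and double siRNA libraries. Rpl29 itself held 148, 95 and 95 reads. The source gene was thus highest in the control library and its copy lowest there. With the 2 other rows that carry the symbol added, Rpl29 held 523, 535 and 552 reads, with log2 differences from control of -0.11 and 0.18. The copy row of Rpl3 held 79, 50 and 37 reads beside 246, 236 and 230 of Rpl3. The 9 copy rows of Rps27a together held 93, 99 and 64 beside 973, 1048 and 826. The copy row of Rpl32 held 213, 158 and 174 reads beside 5832, 5071 and 4079 of Rpl32, and the 6 copy rows of Rps2 held at most 4 reads together in any library. For Rpl36a the row kept by length, on chr12 with 2231, 2067 and 2177 reads, lies on the annotated gene Rpl36al, a retrocopy that encodes a nearly identical protein, while the row on chrX held 91, 112 and 83 reads.

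Knockdown was checked in the same libraries. Ptbp1 had 7191, 1486 and 1516 reads in the control, Ptbp1 siRNA and double siRNA libraries. Ptbp2, which is known to increase when Ptbp1 is lost, had 784, 3044 and 633 reads. The double siRNA library is thus low in Ptbp1 but holds Ptbp2 at 1.15-fold below the control (95% counting interval 1.04 to 1.28), so that the knockdown libraries are alike in low Ptbp1 and differ in Ptbp2. Reads summed over rows were 16011365, 16899510 and 14242557. Of 12 catecholaminergic neuron genes 11 reached 1 CPM (scaled reads relative to the size of the library) in each library, while Slc6a2, the noradrenaline transporter, had 0, 1 and 0 reads. Marker lists of other cell types were low. Summed over 7 fibroblast genes, of which 3 reached 1 CPM and Col1a2 was at 0, levels were 14.4, 11.9 and 7.69 CPM in the control, Ptbp1 siRNA and double siRNA libraries. Over 6 blood and endothelial genes, with Hbb-b1 and Hba-a1 at 0, they were 22.3, 16.9 and 11.8 CPM, most of it from Pecam1. For 5 astrocyte genes they were 2.57, 1.63 and 1.39 CPM, and for 5 oligodendrocyte and Schwann cell genes 3.35, 6.40 and 5.12 CPM. The first 3 of these sums, like the share of ribosomal protein reads given next, were highest in the control library, and their part in that share was not tested.

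Ribosomal protein genes held 1.497% of the reads in the control library (exact 95% binomial interval 1.491 to 1.503), 1.390% after the Ptbp1 siRNAs (1.384 to 1.396) and 1.390% after both (1.384 to 1.397). Either knockdown thus gave a lower share than the control siRNAs by more than counting error. Large subunit genes held 0.883%, 0.818% and 0.848%, and small subunit genes 0.614%, 0.572% and 0.543%. In bulk RNA a lower share of these mRNAs per cell and fewer cells with a high share cannot be told apart.

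A few genes carried most of these reads. The 6 with the most reads held 58.2% of all member reads in the control library, 59.9% after the Ptbp1 siRNAs and 58.8% after both. Levels in the control library ran from 0.17 RPKM for Rpl3l to 1714 for Rpl8, with 24 members above 100 RPKM (15 large, 9 small) and 20 below 10 (14 large, 6 small), although the proteins are needed in nearly equal numbers. The median was 28.3 RPKM for the large and 28.1 for the small subunit. Without members in which at least 50% of windows are repeated the medians were 49.8 and 119 RPKM, and with up to 5 copies 194 and 295.

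Rpl8, a core protein beside the peptidyl transferase centre, had the highest mean level, with 1714, 1677 and 1614 RPKM in the control, Ptbp1 siRNA and double siRNA libraries. Rpl4, which lines the tunnel for the nascent peptide, had 847, 822 and 903 RPKM. Rpl8 was above Rpl4 in each library. Rps20, a protein of the small subunit head, had 735, 558 and 502 RPKM, Rpl14 had 585, 543 and 605, and Rps26, which contacts the mRNA upstream of the start codon, had 401, 494 and 538. These 3 changed places: Rps20 was the highest of them in the control and Ptbp1 siRNA libraries and the lowest after both siRNAs.

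The lowest mean levels belonged to Rpl19 with 4.002, 4.71 and 4.35 RPKM, Rpl23a with 4.62, 2.33 and 5.18, Rpl21 with 2.67, 3.44 and 4.63, and Rpl3l. The first 3 rest on 31 to 197 reads a library and have 18, 39 and 97 copy loci. Rpl3l, known as a form of heart and skeletal muscle, had 5, 9 and 11 reads and 0 copy loci, so its low value is not accompanied by shared sequence. Row length also entered the levels: the row of Rps24 is 4384 bases long against 900 bases of annotated coding-transcript exons, and that of Rps3 4238 against 1878, and a longer row gives a lower RPKM for the same reads. In Rpl23a 59.5% of the exon bases overlap another gene, in Rps25 29.2%, in Rpl35 21.5% and in Rpl18 12.2%, and their counts may hold reads of the overlapping genes.

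**Figure D2:**
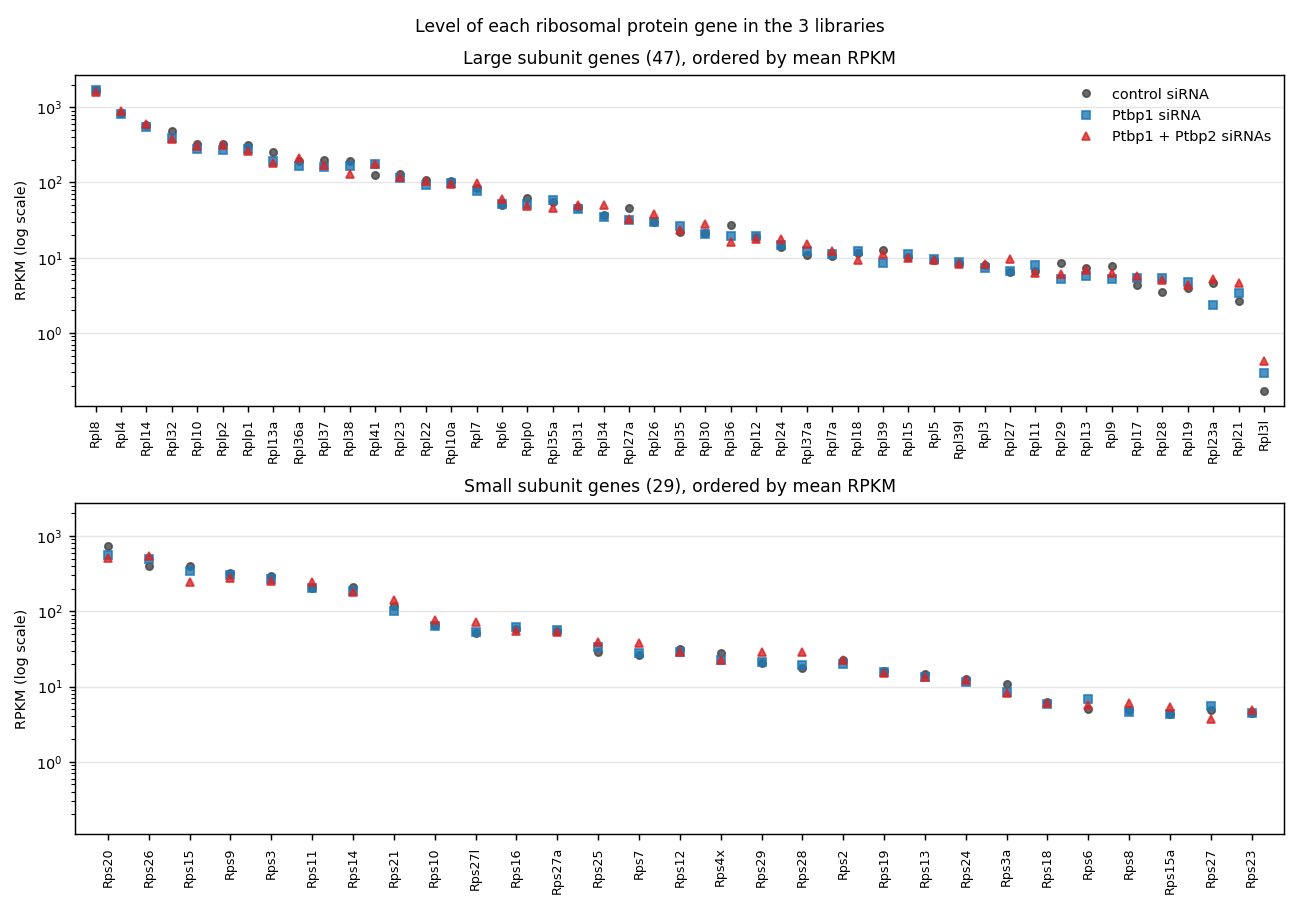
RPKM (log scale) of 47 large and 29 small subunit genes in the control siRNA (grey circles), Ptbp1 siRNA (blue squares) and double siRNA (red triangles) libraries, ordered by mean level. Levels run from Rpl8 at 1714 RPKM to Rpl3l at 0.17 RPKM in the control library, and the 3 values of a gene mostly lie close together beside that range.

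Differences between libraries were taken on the log2(CPM + 1) scale after trimmed-mean scaling, for genes of at least 1 CPM in the higher library, which 78 members reached (all but Rpl3l). A difference was counted by the 25% rule where the higher library stood at least 25% above the lower, and by the 2-fold rule where it stood at least 2-fold above it, in each case only where the 95% counting interval of the ratio also excluded 1; ratios and their intervals are of CPM without the added 1.

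After the Ptbp1 siRNAs most ribosomal protein genes were slightly lower than in the control library. The median difference of the 78 members was -0.12, against -0.003 over all 13399 genes tested and -0.03 over the 2503 genes of at least 100 CPM. Of the 78, 56 were below 0 (71.8%), against 50.6% of all genes and 54.9% of the abundant ones. These are counts of direction alone. The counting interval of the ratio excluded 1 for 37 members that were lower and for 3 that were higher. By the 25% rule 14 members were lower, against 11.6% of all genes, and 2 were higher, against 9.78%. By the 2-fold rule 0 members were lower and 0 higher, against 0.433% and 0.276% of all genes. Small differences in 1 direction thus make up the shift rather than a few large ones.

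The median difference was below 0 in both subunits, at -0.16 for large and -0.11 for small subunit genes. By the 25% rule 11 large subunit genes were lower (23.4%) and 1 higher (2.13%), against 11.6% and 9.78% of all genes. Of the small subunit genes 3 were lower (9.68%), a share below that of all genes, and 1 was higher (3.23%). Summed over genes, large subunit CPM was 0.884 times the control level (0.878 to 0.891) and small subunit CPM 0.890 times (0.882 to 0.898). The intervals overlap, so no difference between the subunits was seen in the sums.

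Rpl23a, Rpl29 and Rpl27a were among the 4 members with the largest lower values after the Ptbp1 siRNAs. Rpl23a, which sits at the tunnel exit, had 58, 31 and 58 reads, a log2 difference of -0.75 after the Ptbp1 siRNAs and one of 0.08 after both. Its CPM ratio, without the added 1, was 2.07-fold lower after the Ptbp1 siRNAs (1.31 to 3.31), so the 2-fold rule leaves it out only on the log2(CPM + 1) scale. Rpl29 differed by -0.69 and -0.47 in its own row, against the -0.11 and 0.18 of its rows together. Rpl27a had 1219, 900 and 788 reads and differed by -0.57 and -0.52. Of these, Rpl27a rests on the most reads, and every window of Rpl23a is repeated.

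On the higher side the largest differences after the Ptbp1 siRNAs were those of Rpl28, Rpl41, Rps6 and Rpl21. Rpl41, the smallest protein of the ribosome, had 1485, 2159 and 1823 reads and was 1.31-fold higher than the control after the Ptbp1 siRNAs (1.23 to 1.41) and 1.32-fold after both (1.23 to 1.42). Rps6, the small subunit protein phosphorylated in response to growth signals, had 167, 241 and 170 reads and was 1.31-fold higher after the Ptbp1 siRNAs (1.07 to 1.60), but all its windows are repeated. Rpl28 (42, 68 and 54 reads) and Rpl21 (127, 174 and 197 reads) had intervals that include 1 in this comparison.

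After both siRNAs the members spread out in both directions. The median difference from control was -0.09, with 45 of 78 below 0 (57.7%) against 50.5% of all 13465 genes and 52.5% of those of at least 100 CPM. By the 25% rule 15 were lower and 12 higher, which are 19.2% and 15.4% of the members, against 20.2% and 18.1% of all genes; a share near that of all genes is not a result about the members. By the 2-fold rule the counts were again 0 and 0, against 2.65% lower and 1.08% higher of all genes. This comparison uses the same control library as the one before.

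After both siRNAs the sum over small subunit genes was further below control than that over large subunit genes. Median differences were -0.09 for large and -0.10 for small subunit genes. By the 25% rule 10 of the large were lower (21.3%) and 6 higher (12.8%), against 20.2% and 18.1% of all genes. Of the small 5 were lower (16.1%) and 6 higher (19.4%). Summed CPM was 0.919 times the control level for the large subunit (0.912 to 0.926) and 0.846 times for the small (0.838 to 0.854), intervals that do not overlap. This order held among members with 0 to 5 copies, where the sums were 0.934 times for the large subunit (0.925 to 0.942) and 0.836 times for the small (0.827 to 0.844) and the medians -0.09 and -0.27. It was not seen with 6 to 14 copies, where the sums were 0.835 times (0.821 to 0.851) and 0.873 times (0.850 to 0.897), or with 15 or more, where they were 0.938 times (0.915 to 0.961) and 0.957 times (0.917 to 0.998); in both groups the intervals overlap. Rps3, an abundant small subunit protein at the mRNA entry, had 30264, 29080 and 23158 reads and was 1.21-fold lower after both siRNAs (1.19 to 1.24). Of the most abundant large subunit genes, Rpl4, with 29094, 29964 and 27688 reads, was 1.02-fold higher (1.01 to 1.04), and Rpl8, with 34388, 35699 and 28895, was 1.11-fold lower (1.09 to 1.12).

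Rps15, a protein of the small subunit head near the decoding site, had 4717, 4275 and 2588 reads. The double siRNA library was the low one: the gene was 1.22-fold lower than control after the Ptbp1 siRNAs (1.17 to 1.27), 1.69-fold lower after both (1.61 to 1.78), and 1.39-fold lower after both than after the Ptbp1 siRNAs alone (1.32 to 1.46). Rpl38, known from mice in which its loss alters the axial skeleton, had 1732, 1555 and 1044 reads, with log2 differences from control of -0.30 and -0.62. Rps20 had 8916, 7185 and 5439 reads, with differences of -0.46 and -0.61, and Rpl13a, known also as a translational repressor outside the ribosome, had 8767, 7096 and 5567, with differences of -0.45 and -0.55. Rpl36, with 241, 187 and 129 reads and every window repeated, differed by -0.47 and -0.73. In these 5 genes the control library was the highest and the double siRNA library the lowest.

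Rps26 went the other way among the abundant genes, with 4224, 5521 and 5061 reads. It was 1.18-fold higher than control after the Ptbp1 siRNAs (1.14 to 1.23) and 1.29-fold higher after both (1.24 to 1.34). The largest higher values after both siRNAs belonged to Rpl21, at 1.67-fold (1.33 to 2.10), Rps28, which lies at the mRNA exit, at 1.54-fold (1.23 to 1.95), Rpl27, at 1.44-fold (1.06 to 1.96), and Rps7, at 1.38-fold (1.21 to 1.56). Rps28 had 129, 151 and 185 reads, Rpl27 had 77, 86 and 103, and Rps7, which can bind the p53 regulator Mdm2, had 433, 493 and 554. Each of these 4 was highest in the double siRNA library, and each has between 9 and 97 copy loci.

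**Figure D3:**
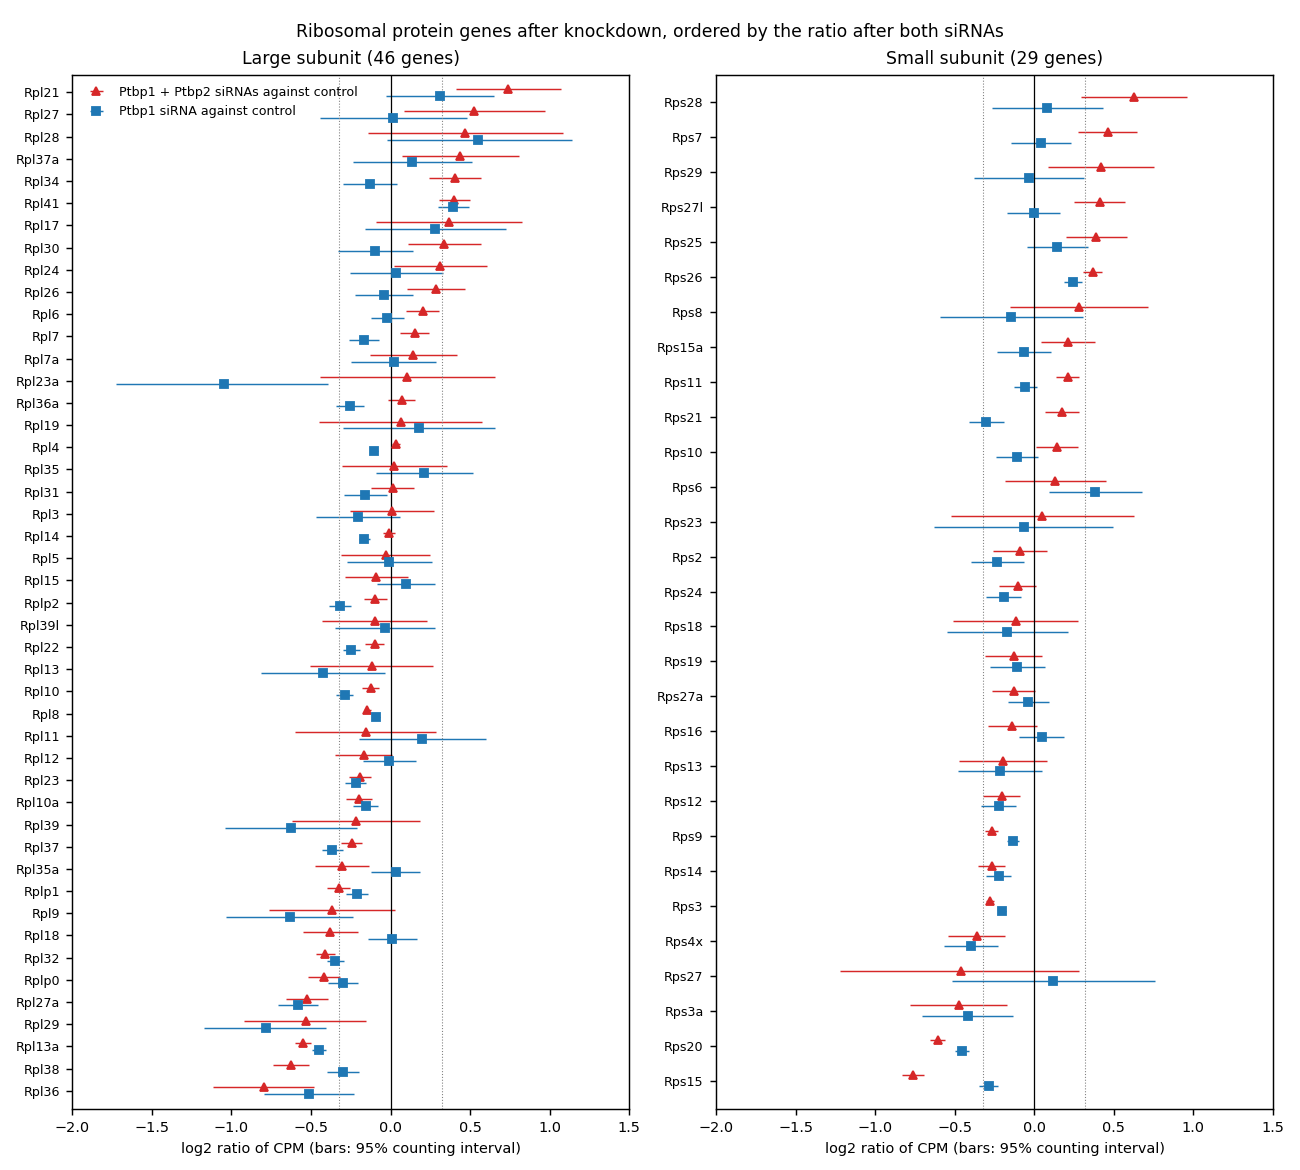
Log2 ratio of CPM against the control library, with 95% counting intervals, for 46 large and 29 small subunit genes, after the Ptbp1 siRNAs (blue squares) and after both (red triangles), ordered by the latter; dotted lines mark 25%. Most genes lie below 0 after the Ptbp1 siRNAs (56 of all 78 tested on the log2(CPM + 1) scale), and Rps15 is the lowest of the small subunit after both.

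The knockdown libraries were also compared with each other. The median difference of the double minus the Ptbp1 siRNA library was 0.07, and 31 of 78 members were below 0 (39.7%) against 50.6% of all 13463 genes and 49.6% of those of at least 100 CPM. By the 25% rule 11 members were higher, against 7.88% of all genes, and 3 were lower, against 10%. The 2-fold rule gave 0 in each direction, against 0.0891% higher and 0.342% lower of all genes. The direction was not shared by all groups of members: the median was 0.0046 without members in which at least 50% of windows are repeated, 0.01 with a mean of at least 1000 reads and -0.04 with up to 5 copies. Summed over all members, CPM was 1.003 times the level after the Ptbp1 siRNAs (0.997 to 1.009). By subunit it was 1.04 times for the large subunit (1.03 to 1.05) and 0.951 times for the small (0.942 to 0.960), so the sums of the subunits lay on opposite sides of 1.

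The 4 highest members in this pair were Rpl23a at 0.84, Rpl34 at 0.52, Rps28 at 0.50 and Rps21 at 0.47 on the log2 scale. Rpl34 had 553, 559 and 681 reads, and Rps21 had 1412, 1267 and 1479. The 4 lowest were Rps15 at -0.47, Rps27 at -0.40, Rpl18 at -0.38 and Rpl35a at -0.33. Rpl18 had 652, 726 and 466 reads and Rpl35a had 669, 756 and 503, both lowest in the double siRNA library. Rps27 rests on 40, 48 and 27 reads, and its interval includes 1.

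Members were split by their reads and by their copies. The 30 members with a mean of at least 1000 reads over the 3 libraries had a median difference of -0.22 after the Ptbp1 siRNAs, with 28 of 30 below 0, and of -0.19 after both, with 22 of 30 below 0. The 48 tested members with fewer reads had medians of -0.03 and 0.01, with 28 and 23 below 0. The bound of 1000 reads was chosen after the values were seen. Members with 0 to 5 copies, which are mostly the abundant ones, had medians of -0.17 after the Ptbp1 siRNAs (17 of 19 below 0) and -0.10 after both (12 of 19 below 0). For 6 to 14 copies the medians were -0.06 and -0.12, and for 15 or more -0.11 and -0.09. A median below 0 against control was thus present in members with few copies. Few copies do not mean unique reads: over the 20 members of this group the median share of repeated windows was 30.5%, and the largest 93.9%. Whether shared reads had a part in the shift was not tested.

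**Figure D4:**
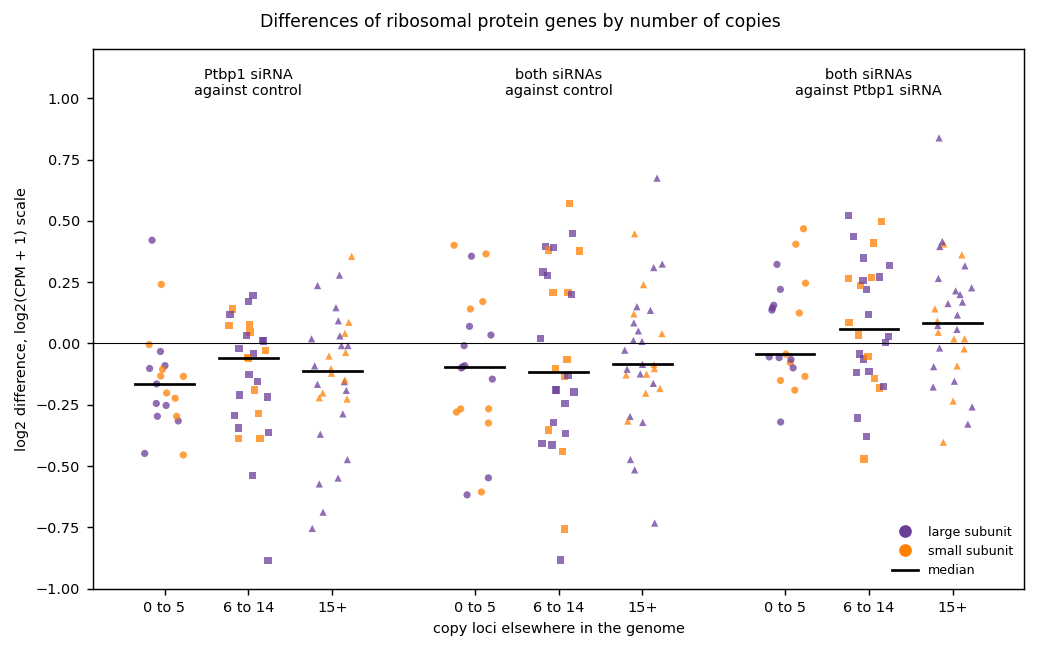
Differences on the log2(CPM + 1) scale for the 3 pairs of libraries (left to right: Ptbp1 siRNAs against control, both against control, both against Ptbp1 siRNAs), with members split by copy loci into 0 to 5 (19 genes), 6 to 14 (28) and 15 or more (30). Black bars are medians; those of genes with 0 to 5 copies are -0.17, -0.10 and -0.04.

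Members were also read by position in the ribosome. The stalk, built from Rplp0, Rplp1 and Rplp2 on a base with Rpl12, recruits the GTPases of translation. Rplp0 had 1961, 1764 and 1364 reads, with differences from control of -0.29 and -0.41. Rplp1 had 3533, 3374 and 2621, with differences of -0.21 and -0.32. Rplp2 had 3430, 3042 and 2983, with differences of -0.32 and -0.10, and Rpl12 had 568, 624 and 470, with differences of -0.01 and -0.16. All 4 were below 0 in both comparisons; by the 25% rule 0 were lower after the Ptbp1 siRNAs and 2 (Rplp0 and Rplp1) after both, against 11.6% and 20.2% of all genes. Rplp0, Rplp1 and Rplp2 are among the members with a mean of at least 1000 reads, whose medians were -0.22 and -0.19; the medians of the 4 stalk genes were -0.25 and -0.24.

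Rpl5 and Rpl11, which bind the 5S ribosomal RNA and, when free, the p53 regulator Mdm2, had 224, 246 and 204 reads and 97, 123 and 81 reads. Their intervals included 1 in all 3 pairs. Of the 9 proteins of the peptide exit tunnel, 2 were lower by the 25% rule after the Ptbp1 siRNAs (Rpl23a and Rpl39), against 11.6% of all genes, and 0 after both, against 20.2%, with medians of -0.10 and 0.03. Of the 18 members mutated in Diamond-Blackfan anaemia, an inherited failure of red cell formation, 0 passed the 25% rule after the Ptbp1 siRNAs, against 11.6% lower and 9.78% higher of all genes. After both, 5 were higher (27.8%) and 1 lower (5.56%), against 18.1% and 20.2%. Their medians were 0.02 and -0.01, against -0.12 and -0.09 over all members.

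The additional and related forms differed in direction. Rps27l, a paralogue of Rps27 known as a p53 target, had 579, 638 and 715 reads and was 1.33-fold higher than control after both siRNAs (1.19 to 1.48), with a difference of 0.00 after the Ptbp1 siRNAs. Rpl39l, known as a testis form, had 166, 179 and 144 reads and intervals that include 1. Outside the symbol rule, Rpl22l1, the paralogue of Rpl22, had 308, 181 and 196 reads, a level 1.88-fold lower after the Ptbp1 siRNAs (1.56 to 2.27) and 1.46-fold lower after both (1.22 to 1.76), while Rpl22 itself had 5276, 4919 and 4574 reads and differences of -0.24 and -0.10. Rpl7l1 had 901, 1233 and 1312 reads, or 1.24-fold (1.14 to 1.35) and 1.57-fold (1.44 to 1.71) above control. In Rpl22l1 78.3% of windows were repeated, with 4 copy loci, and in Rpl7l1 25.9%, with 321. Of these 321 loci 4 lay in annotated pseudogenes, and the most repeated window of Rpl7l1 stood at 24108 places. The 321 therefore cannot be taken as a count of copies of the gene. Rpl10l had no row.

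Some standard ribosomal proteins have names that the rule does not take. Fau, whose product is cleaved into a ubiquitin-like part and Rps30, had 638, 557 and 567 RPKM, and Rpsa had 96.7, 101 and 92.9. Their differences from control after both siRNAs were -0.23 and -0.12, and neither passed the 25% rule.

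The start of the transcript was compared with the RefSeq promoter table, which is of build GRCm38.p6 and not of the build of the reads. A TOP-like tract was searched as a run of at least 5 pyrimidines that begins with C within 5 bases of the annotated start, on the gene's strand. Of 58 members with an entry 28 had such a tract (48.3%), against 5718 of 27025 genes in the table (21.2%); counted over starts, it was 30 of 70 (42.9%) against 6027 of 32851 (18.3%). The median tract was 8 bases long. The 30 bases shown begin 10 bases before the annotated start, with the tract in capitals. They are of 4 members named above that have one and of 2 in which this search found none.

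Rpl13a (GRCm38.p6 chr7:45128726-45128755, - strand): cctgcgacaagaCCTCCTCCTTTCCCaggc

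Rpl27a (GRCm38.p6 chr7:109519185-109519214, + strand): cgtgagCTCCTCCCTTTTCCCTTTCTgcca

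Rpl38 (GRCm38.p6 chr11:114668570-114668599, + strand): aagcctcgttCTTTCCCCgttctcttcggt

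Rps26 (GRCm38.p6 chr10:128626487-128626516, - strand): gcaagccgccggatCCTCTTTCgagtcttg

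Rps15 (GRCm38.p6 chr10:80292421-80292450, + strand): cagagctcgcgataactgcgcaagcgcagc

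Rpl4 (GRCm38.p6 chr9:64173377-64173406, + strand): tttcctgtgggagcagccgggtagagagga

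The tract of Rpl27a was the longest found, at 20 bases. Rpl13a, Rpl27a and Rpl38, with tracts, were lower after both siRNAs, Rps26, also with one, was higher, and Rps15, without one in this window, was lower. A match describes these letters at an annotated start, which may lie some bases from the start used in these cells.

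Other genes of translation were read for comparison, with lists chosen by function. Of 19 other genes known for mRNAs with a TOP tract (Fau and Rpsa among them), 14 were below 0 after both siRNAs. Their median was -0.12. By the 25% rule 4 were lower (21.1%) and 0 higher, against 20.2% and 18.1% of all genes. The share lower is near that of all genes and is not a result about the list. Eef2, the translocation factor, had 75904, 70809 and 48733 reads and was 1.45-fold lower after both (1.43 to 1.46), Eif3f was 1.39-fold lower (1.35 to 1.44), and Eef1a1, which brings aminoacyl-tRNA to the ribosome, was 1.29-fold lower (1.252 to 1.335). After the Ptbp1 siRNAs the list had a median of -0.11, with 17 of 19 below 0 against 50.6% of all genes. By the 25% rule 1 gene was lower (5.26%) and 0 higher, against 11.6% and 9.78% of all genes.

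Of 16 initiation factor genes in a list of their own, 7 were higher and 0 lower by the 25% rule after both siRNAs, against 18.1% and 20.2% of all genes, and 2 were below 0, with a median of 0.26. The initiation factors Eif3e, Eif3f, Eif3h and Eif4b had been placed in the TOP list, with differences of 0.24, -0.48, -0.08 and -0.29. Over the 20 initiation factors of both lists, 7 were higher and 1 lower and 5 were below 0, with a median of 0.22. Of those that were higher, Eif4g2 was 1.52-fold higher (1.49 to 1.55), Eif3b 1.396-fold (1.35 to 1.44) and Eif5 1.38-fold (1.305 to 1.46). Of 17 ribosome biogenesis genes, 13 were higher and 0 lower after both siRNAs, against 18.1% and 20.2% of all genes, with a median of 0.64, and 0 were below 0. Polr1b and Polr1a, the large subunits of the polymerase that transcribes ribosomal RNA, had 931, 1385 and 1713 reads and 1637, 2867 and 2902 reads; after both siRNAs they stood 1.98-fold (1.83 to 2.15) and 1.91-fold (1.79 to 2.03) above control. Dkc1, the pseudouridine synthase of ribosomal RNA, had 928, 1404 and 1689 reads and was 1.96-fold higher (1.81 to 2.12). After the Ptbp1 siRNAs the biogenesis list had a median of 0.23, with 7 genes higher and 0 lower against 9.78% and 11.6% of all genes, beside the median of -0.12 of the ribosomal proteins in the same pair. All genes tested had a median of -0.005 after both siRNAs. A list of 8 p53 target genes had medians of 0.00 and 0.01 in the same comparisons, with members on both sides. After the Ptbp1 siRNAs 1 was higher and 1 lower by the 25% rule, against 9.78% and 11.6% of all genes, and after both 0 were higher and 3 lower, against 18.1% and 20.2%. The 3 were Trp53inp1, with 374, 261 and 138 reads and past the 2-fold rule, Bbc3 at -0.62 and Cdkn1a at -0.40.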

How the data were processed

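The deposited table gives, for each gene cluster on mm9, reads and RPKM per library. Per the labels' protocols, poly(A)+ RNA was read as 36-base pairs from 350 ± 50 bp fragments after 15 PCR cycles; which counter was used, and how it treated reads with several matches, is not given in the sources used here. Read values are whole numbers deposited after a subtraction that is not described: 38 clusters have a value below 0 (lowest -65) and, with 127 without length, were left out, leaving 27224. Libraries were scaled by trimmed means (30% of ratios, 5% of levels; factors 0.970, 1.016 and 1.014), so that 1 CPM is 15.5, 17.2 and 14.4 reads. A fold rule needed at least 1 CPM in the higher library and an exact (Clopper-Pearson) 95% interval excluding 1. With 1 library per group no test was made. Copy loci were found by scanning 22 chromosomes for 36-base windows of GENCODE coding transcripts, joined within 2000 bases; scripts (Python 3.11.15, numpy 2.4.6, numba 0.67.0) were tested on simulated data. Members and lists were chosen with earlier results of these data known. Named members are the 6 highest and 4 lowest by mean RPKM, the 4 largest differences per pair and direction among those with at least 50 reads in the pair, the 4 with the most copies, the 4 with the largest share of repeated windows, the stalk, 5S and paralogue lists, and up to 3 per other translation list. Rpl10, Rpl13a, Rpl32, Rps3, Rpl22, Rps24, Rpl39, the genes with overlaps and those with every window repeated were named after their values were seen. The alternatives tried are given at the end. Some genes that this rule names are not reported here; they stay in all counts, medians and sums.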

Additional observations from a re-analysis of the deposited data

How the results depend on the processing

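No paired analysis was possible because each condition is 1 library. Of 132 alternative values of the main quantities, 101 stayed within 1.5 times or 1 spread of the reported one. Without the 48 of 78 members in which at least 50% of windows are repeated, the Ptbp1 siRNA comparison had 4 lower and 1 higher, in place of 14 and 2. The share lower was then closer to the 11.6% of all genes than it was among all 78 members. Both siRNAs against control had 6 lower and 4 higher. Both against Ptbp1 siRNAs had 3 lower and 5 higher, with a median of 0.0046 in place of 0.07. Of all genes, 11.6% were lower and 9.78% higher, 20.2% and 18.1%, and 10% and 7.88% in the same order. The remaining subsets were chosen after seeing the data. With up to 5 copies (19 members), the counts in the same order were 2 lower and 0 higher, 4 and 2, and 0 and 3. The share lower after the Ptbp1 siRNAs was thus 10.5%, near that of all genes, in place of 17.9% of 78. The median between the knockdown libraries was -0.044 in place of 0.07. With a mean of at least 1000 reads the counts were 5 and 1, 9 and 2, and 1 and 2. After the Ptbp1 siRNAs the lower count is 16.7% of 30 members. After both siRNAs the lower count is 30%, in place of 19.2% of 78, and the higher count 6.67%, in place of 15.4%. Scaling by library totals, which moved the median of all genes by 0.06 against control, gave 4 members higher after the Ptbp1 siRNAs, and a pseudocount of 5 CPM gave 1 there and 7 higher between the knockdown libraries. Median RPKM of large and small subunit genes was 42.8 and 42.4 with reads divided by the sum over rows, 49.8 and 119 without the repeated members, and 194 and 295 with up to 5 copies. Over the deposited library totals the share of reads was 0.992%, 0.916% and 0.918%. Allowing 1 mismatch raised the median share of repeated windows from 64.0% to 73.7%. Members under 50 reads in some library, of which there are 4, have wide intervals, and no replicate shows how far any difference would recur.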
